A study of Drosophila melanogaster with 13 samples.

Results

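The 26S proteasome subunit genes were examined in MN1-Ib motoneurons of Drosophila melanogaster: every gene of the count table with a symbol of the form Rpn, Rpt, Prosalpha or Prosbeta followed by a digit. This gave 48 of 17753 genes, of which 8 encode lid subunits, 10 base subunits, 7 alpha and 7 beta subunits of the core, and 16 are testis-type paralogues (symbol ending in R or T, with or without a digit). MN1-Ib is an identified neuron of the larval ventral nerve cord, and its contents were drawn into a patch pipette from larvae of instar 3. All cells carried MN1-Ib-GAL4 and UAS-mCD8:GFP, so membrane GFP was made in every group, the controls (MN1> GFP) included. The same driver expressed RNA interference constructs against Shal, against Notch, or against both. The controls, Shal RNAi and Notch+Shal RNAi had 3 libraries each and Notch RNAi had 4, with 4 to 8 cells of 1 or 2 larvae pooled per library. Each library was an independent reaction. Whether reactions within a group came from the same larvae is not stated, and the p-values reflect variation among reactions, which may be technical.

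The proteasome degrades proteins tagged with ubiquitin. Its core particle stacks alpha and beta subunit rings, and Prosbeta1, Prosbeta2 and Prosbeta5 carry the proteolytic sites (caspase-like, trypsin-like and chymotrypsin-like). Alpha subunits form the gate through which substrates enter. On the core sits the regulatory particle: its base holds the ATPases Rpt1 to Rpt6, which unfold substrates, with Rpn1, Rpn2, Rpn10 and Rpn13, and its lid holds the deubiquitinase Rpn11 among scaffold subunits. Drosophila has duplicate subunit genes expressed in the male germline. In neurons the proteasome is known for setting levels of synaptic proteins.

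Total gene counts ran from 3783100 to 9319116 per library, and the 32 standard subunit genes took 0.229% to 1.58% of them. Levels are given as normalised CPM (counts scaled to a common library total and by the TMM factor of edgeR) with replicates in number order, and group values are mean ± SD. Shal RNA itself was not lower in the libraries labelled Shal RNAi: it lay at 94.0 to 218 normalised CPM there and at 4.74 to 84.5 in the controls, so each direction below is that of the libraries so labelled. In Notch+Shal RNAi it lay at 21.6 to 71.1, within the control range. N RNA spanned 25.6 to 183 in the controls, 19.1 to 209 in Notch RNAi and 15.03 to 345 in Notch+Shal RNAi, overlapping ranges, and lay at 2.09 to 28.7 in the libraries labelled Shal RNAi. Shal RNAi 1 and 3 stood apart, with 13.5% and 11.5% of counts from mitochondrially encoded genes (0.893% to 5.83% elsewhere) and TMM factors of 0.568 and 0.620 (0.935 to 1.41 elsewhere). All 6 neuronal markers chosen for motoneurons (VGlut, elav, nSyb, brp, Syt1, eve) had counts in every library, summing to 1424 to 7404 CPM. Of these eve ranged from 12.4 to 930 CPM. The fat body markers (larval serum proteins, Fbp1 and Fbp2) also had counts in every library, at 1421 to 18399 CPM. The 6 muscle markers summed to 126 to 2464 CPM. The 5 glial markers summed to 16.3 to 757 CPM, with Gs2 the one present in every library, Eaat1 and moody in 8 each, repo in 2 and alrm in 0. The 4 markers of other neurons summed to 0.148 to 62.7 CPM, with VGAT in 12 libraries, Gad1 and VAChT in 2 each and ChAT in 1. The dosage compensation RNA roX1 stood at 7.73 to 23.1 CPM in the controls and at 31.3 to 3823 in the RNAi libraries. The part of larval sex in the comparisons with control was not tested.

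Of the standard genes 31 of 32 had counts in all 13 libraries and passed the low-count filter. Prosalpha1, an alpha-ring subunit, was listed at 0 in every library, as was its paralogue Prosalpha1R. Both have a coding length of 732 bases and lie 1734 bases apart on the minus strand of chromosome arm 2R (chr2R:7827303-7828678, minus strand, and chr2R:7830413-7831771, minus strand; BDGP6, annotation release 54). How reads with several matches were counted is not given in the sources used here, so these zeros are no measure of expression. Exons of 13 standard genes overlap another counted gene on the other strand, by at most 264 bases (Rpn9), and use of strand in the counting is not given.

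Per kilobase of exon, core transcripts were the most abundant subunit class in the controls and base transcripts the least. The median over core genes was 480 ± 139 CPM per kilobase in the controls (mean of library medians ± SD, n = 3), against 260 ± 67.7 over lid genes and 165 ± 45.2 over base genes. The highest control level was that of Prosbeta3, a core beta subunit, at 904 ± 160.2 CPM per kilobase. Prosbeta4 and Prosalpha2 followed at 723 ± 246 and 719 ± 174, differences within their spread. Rpn11, the deubiquitinase of the lid, was the highest regulatory particle transcript at 466 ± 172 and ranked 8 among all members. At the lower end came the ubiquitin receptor Rpn13 at 49.4 ± 34.3, and the large base scaffolds Rpn1 at 48.7 ± 17.4 and Rpn2 at 48.5 ± 14.2, whose levels were not separable. Of the testis-type genes only Rpt6R came near the least abundant standard genes, at 36.4 ± 27.8 CPM per kilobase.

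In the libraries labelled Shal RNAi against control, proteasome subunit RNA stood lower across lid, base and core. The 8 lid genes summed to 3189, 2103 and 3109 normalised CPM in the controls and to 957, 2146 and 467 in the libraries labelled Shal RNAi. The 10 base genes summed to 2037, 1875 and 2750 in the controls and to 786, 1776 and 472 in the libraries labelled Shal RNAi. The 13 core genes with counts summed to 6408, 4449 and 6502 in the controls and to 2978, 4734 and 2765 in the libraries labelled Shal RNAi. Shal RNAi 1 and 3 were the low ones in each class, and Shal RNAi 2 lay at or within the control range for lid and core and just below it for base. In a bulk library fewer cells of a type and less RNA per cell cannot be told apart.

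**Figure D1:**
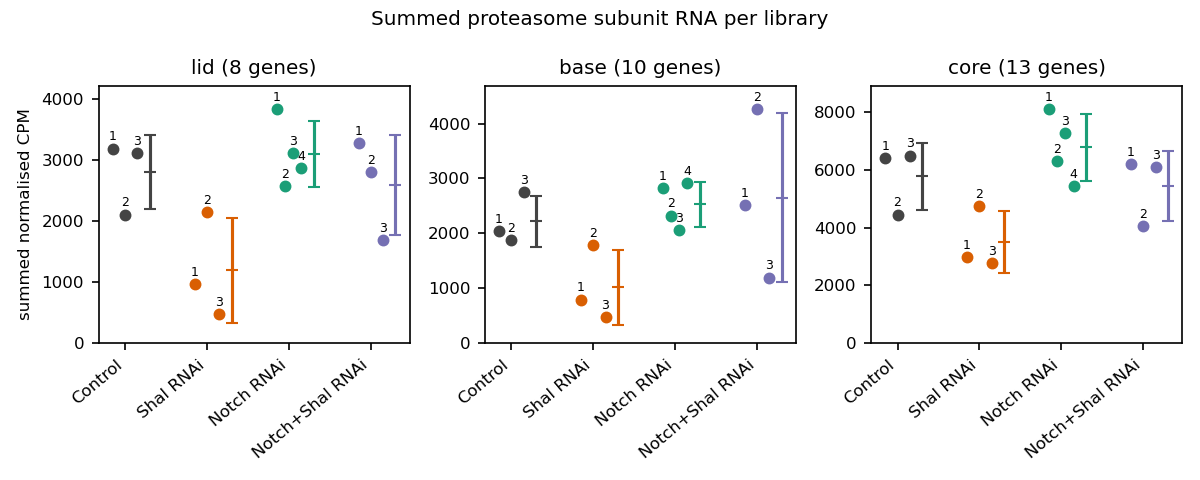
Summed normalised CPM (vertical axis, linear from 0) of the lid, base and core genes in each of 13 libraries; points are libraries with their replicate number, bars are mean ± SD. Shal RNAi 1 and 3 are the lowest libraries of all in each panel (for the lid 957 and 467), whereas Shal RNAi 2 lies with the controls, and Notch+Shal RNAi 2 is the highest for the base (4261).

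Log2 fold changes against control were below 0 for 32 of the 34 members that passed the filter (3 testis-type genes among them), where 56.9% of all 8908 genes tested were. Their median was -1.001 (-0.99 over the 31 standard genes), against -0.27 over all genes tested. By class the median was -1.32 for the lid, -1.20 for the base and -0.81 for the core. Other genes with 815 to 1215 bases of exon, the range of core subunits, had a median of -0.47. Other genes above 1215 and up to 3412 bases, where most regulatory particle subunits lie, had a median of -0.64. No member, and none of the 8908 genes (0.0%), had an adjusted p under 0.05 in edgeR; DESeq2 called 309 genes and 0 members. At an unadjusted p under 0.05, 8 of 31 standard genes were lower, where 3.72% of all genes were. These were 5 of 8 lid genes (Rpn3, Rpn5, Rpn9, Rpn11, Rpn12), 3 of 10 base genes (Rpt1, Rpt5, Rpt6) and 0 of 13 core genes. The difference between the classes was not tested. The 2 groups did not overlap for 11 of 31 standard genes, where 11.4% of all genes were so separated downwards. The count of 8 was 0 without Control 3, without Shal RNAi 1 or without Shal RNAi 3, 2 without Control 1, and 18 without Shal RNAi 2, which also moved the median to -1.61. These counts were over the members tested, 34 in the main fit and 35 without Control 1. The members tested were 38 without Control 3 and without each Shal RNAi library. The share of all genes at that threshold in these fits is not given here. Without Shal RNAi 2, Rpn7 alone among the members passed the adjusted threshold (edgeR, adjusted p = 0.0436, log2 fold change -3.04, SE 0.76). Over the fits with 1 library left out, 0 to 146 of all genes passed it in this comparison.

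Among lid genes the deubiquitinase Rpn11 (chr2L:5058404-5059790, minus strand) measured 514, 321 and 622 normalised CPM in the controls, 157, 329 and 39.7 in the libraries labelled Shal RNAi, 657, 360.1, 554 and 480.2 in Notch RNAi and 457, 555 and 315 in Notch+Shal RNAi. Its lowest value of all was in Shal RNAi 3, while Shal RNAi 2 lay within the control range (adjusted p = 0.399, log2 fold change -1.44, SE 0.65). Rpn3, a scaffold subunit, measured 434, 273 and 342 in the controls and 48.0, 239.8 and 43.6 in the libraries labelled Shal RNAi, and its groups did not overlap (adjusted p = 0.393, log2 fold change -1.60, SE 0.71). Rpn12 measured 353, 218 and 275 in the controls and 68.4, 159 and 101 in the libraries labelled Shal RNAi, again without overlap (adjusted p = 0.399, log2 fold change -1.34, SE 0.60). Rpn9 measured 401, 299 and 483 in the controls and 124, 269.6 and 74.3 in the libraries labelled Shal RNAi, also without overlap, at a log2 fold change of -1.31 (SE 0.60). Rpn5 measured 546, 226 and 427 normalised CPM in the controls, 144, 261 and 21.5 in the libraries labelled Shal RNAi, 768, 355, 392 and 369 in Notch RNAi and 621, 295 and 229 in Notch+Shal RNAi. This scaffold subunit was lowest in Shal RNAi 3 and highest in Notch RNAi 1, and Shal RNAi 2 lay between Control 2 and Control 3. Rpn7 measured 450.1, 357 and 407 in the controls and 25.6, 476 and 65.3 in the libraries labelled Shal RNAi, so that Shal RNAi 2 was above all controls and the other libraries of its group far below. Rpn6, which in yeast bridges lid and core, measured 316, 258 and 326 in the controls and 330.1, 250.2 and 62.95 in the libraries labelled Shal RNAi, and Shal RNAi 3 alone was far below the controls (adjusted p = 0.754, log2 fold change -0.49, SE 0.64).

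Among base genes Rpn1 (chr3L:19915051-19918160, plus strand), the scaffold that docks ubiquitin-like domains and Usp14, measured 90.4, 128 and 162 normalised CPM in the controls, 34.2, 53.1 and 28.6 in the libraries labelled Shal RNAi, 86.7, 70.1, 102 and 299.8 in Notch RNAi and 98.4, 492 and 58.8 in Notch+Shal RNAi. All 3 libraries with the Shal RNAi label lay below the controls (adjusted p = 0.428, log2 fold change -1.67, SE 0.82), and the highest values were in Notch+Shal RNAi 2 and Notch RNAi 4. Rpt6, an ATPase, measured 403, 252 and 484 normalised CPM in the controls, 31.7, 247 and 65.9 in the libraries labelled Shal RNAi, 482, 361, 305 and 278 in Notch RNAi and 605, 396 and 177 in Notch+Shal RNAi. It had the lowest p of any member, and its groups did not overlap (adjusted p = 0.361, log2 fold change -1.66, SE 0.69). Rpt1 measured 226, 193 and 341 in the controls and 63.5, 159 and 41.5 in the libraries labelled Shal RNAi, with no overlap (adjusted p = 0.416, log2 fold change -1.47, SE 0.69), and the same held for Rpt5 at 390.0, 261 and 372 in the controls and 87.9, 239 and 28.9 in the libraries labelled Shal RNAi (adjusted p = 0.404, log2 fold change -1.48, SE 0.67). Rpt2, whose tail in yeast helps open the core gate, measured 234, 311 and 450.0 in the controls and 71.2, 289 and 31.3 in the libraries labelled Shal RNAi, with Shal RNAi 2 inside the control range (adjusted p = 0.454, log2 fold change -1.29, SE 0.67). Rpt4 measured 184, 208 and 243 in the controls and 29.7, 214 and 34.3 in the libraries labelled Shal RNAi, a like pattern (log2 fold change -1.11, SE 0.72). The remaining base genes overlapped between the groups. Rpt3 measured 99.5, 188 and 181 in the controls and 98.1, 153 and 88.6 in the libraries labelled Shal RNAi (log2 fold change -0.44, SE 0.73), and the scaffold Rpn2 measured 193, 100.2 and 141 in the controls and 147, 126 and 71.3 in the libraries labelled Shal RNAi (-0.34, SE 0.68). The ubiquitin receptors Rpn10 and Rpn13 had log2 fold changes of -0.68 (SE 0.68) and 0.09 (SE 0.86).

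Among core genes the chymotrypsin-like subunit Prosbeta5 (chr2R:10819978-10821178, plus strand) measured 679.6, 425 and 684 normalised CPM in the controls, 118, 479.9 and 146 in the libraries labelled Shal RNAi, 927, 676, 865 and 558 in Notch RNAi and 585, 363 and 626 in Notch+Shal RNAi. Shal RNAi 1 and 3 lay below all other libraries and Shal RNAi 2 within the control range (adjusted p = 0.431, log2 fold change -1.24, SE 0.61). The caspase-like Prosbeta1 measured 238, 198 and 351 in the controls and 103, 228 and 87.7 in the libraries labelled Shal RNAi (adjusted p = 0.552, log2 fold change -0.88, SE 0.60). The trypsin-like Prosbeta2 measured 491, 293 and 459.6 in the controls and 246, 300.2 and 263 in the libraries labelled Shal RNAi, and its log2 fold change was -0.62 (SE 0.58). The 3 catalytic subunits thus spanned log2 fold changes from -1.24 to -0.62, none at p under 0.05. Prosalpha7 measured 304, 246 and 315 in the controls and 126, 207 and 89.5 in the libraries labelled Shal RNAi, with no overlap (adjusted p = 0.5003, log2 fold change -1.02, SE 0.60), and the gate subunit Prosalpha3 measured 447, 288 and 632 in the controls and 156, 370.4 and 155 in the libraries labelled Shal RNAi, with overlap (adjusted p = 0.507, log2 fold change -0.99, SE 0.59). Prosalpha4, Prosalpha5 and Prosbeta7 were the other core genes without overlap. Prosbeta4 was the exception among beta subunits: it measured 696, 323 and 525 in the controls and 624, 432 and 595 in the libraries labelled Shal RNAi, so that Shal RNAi 1 and 3 were inside the control range (log2 fold change 0.09, SE 0.59).

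**Figure D2:**
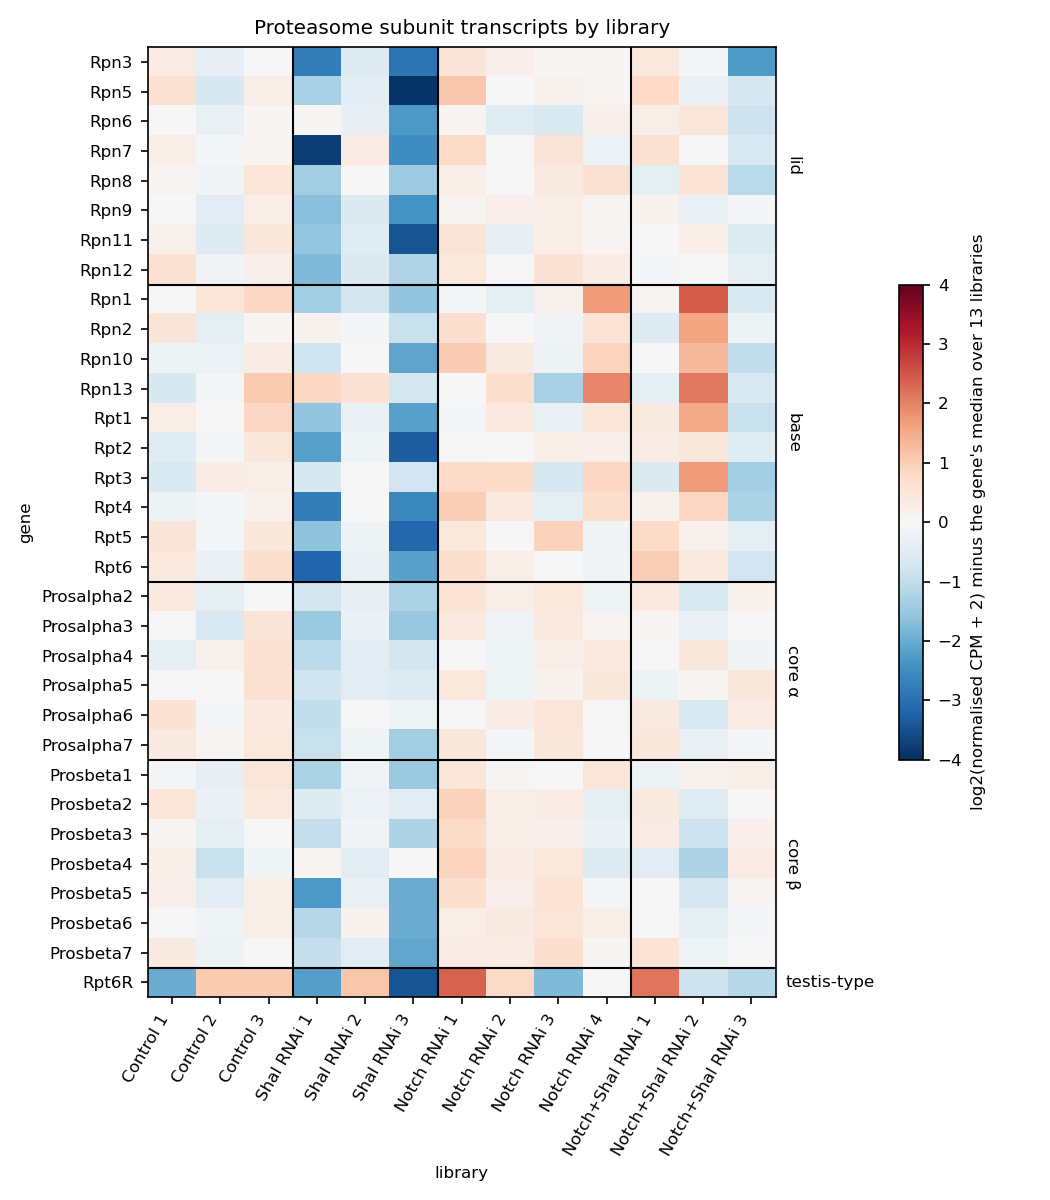
Log2(normalised CPM + 2) of the 31 standard subunit genes with counts and Rpt6R (rows) in each library (columns), minus the gene's median over 13 libraries; blue is below and red above that median. Shal RNAi 1 and 3 are below the median in nearly all rows, except Prosbeta4 in both and Rpn2, Rpn6 and Rpn13 in Shal RNAi 1, and Notch+Shal RNAi 2 is red in the base rows and blue in most core rows.

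Shal RNAi 1 and 3 were the lowest 2 of all 13 libraries for 23 of 31 standard genes, where this held for 11.2% of all genes tested. The count was 7 of 8 for the lid, 6 of 10 for the base and 10 of 13 for the core. Without these 2 libraries, which leaves 1 library whose spread is borrowed from the rest, the median of the members tested was -0.44 (-0.35 over all genes) and 0 members reached p under 0.05. Beside their mitochondrial share and TMM factor, the 5 hemocyte markers summed to 264 and 250 CPM in those libraries and to 19.2 in Shal RNAi 2. The sum was 47.3 to 61.0 in the controls and 210 in Notch+Shal RNAi 1. In Shal RNAi 1 and 3 He made most of it, at 253 and 222. The other 4 were not raised in both: NimC1 stood at 6.23 and 0.185, Hml at 3.23 and 20.7, Pxn at 1.62 and 6.46 and eater at 0. In the controls Hml stood at 3.76 to 13.4 and Pxn at 2.58 to 8.69. The part of these measures in the lower proteasome values was not tested. With TMMwsp factors the median of the members was -0.75 where that of all genes was -0.02, and 32 of 34 stayed below 0.

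**Figure D3:**
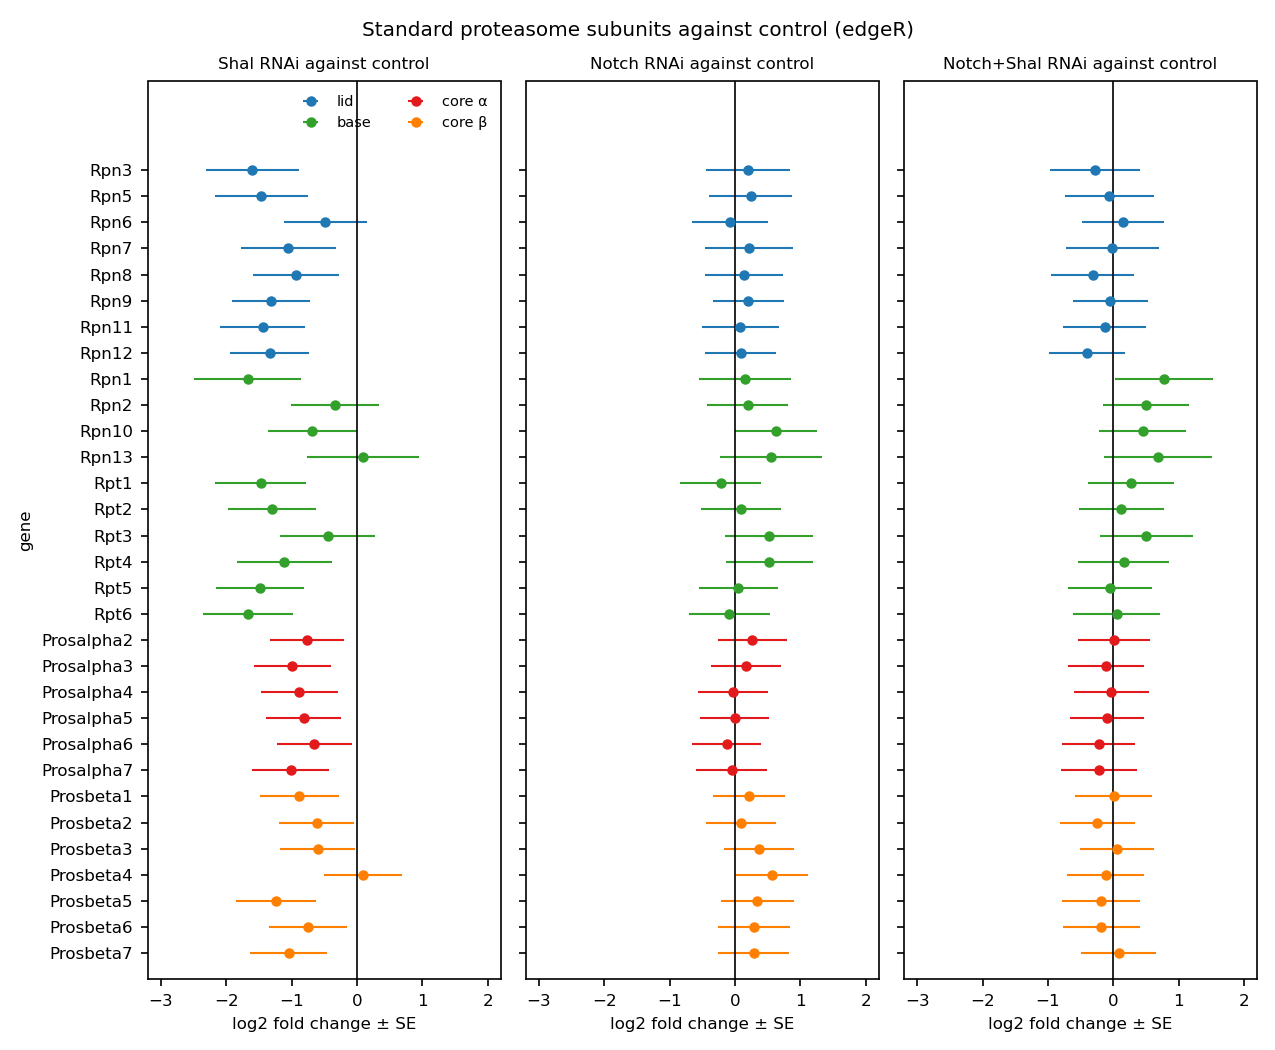
Log2 fold change ± SE against control (horizontal axis, edgeR) of the 31 standard subunit genes with counts, for each RNAi group; the 3 panels share the control libraries, and colours give lid, base and core. In the first panel 29 of 31 points lie below 0, from -1.67 (Rpn1) to 0.09 (Prosbeta4), whereas they lie between -0.22 and 0.63 for Notch RNAi and between -0.40 and 0.78 for Notch+Shal RNAi.

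Notch RNAi against control gave no such shift. This comparison and the next share the control libraries with the one above. Of the standard genes 0 of 31 had an adjusted p under 0.05 in edgeR or DESeq2 and 0 an unadjusted p under 0.05, where 0.0% and 4.32% of all genes did. The median log2 fold change was 0.18 over the 34 members that passed the filter and 0.03 over all genes. Standard genes spanned -0.22 (Rpt1, SE 0.62) to 0.63 (the ubiquitin receptor Rpn10, SE 0.63). Rpn10 measured 181, 177 and 258 normalised CPM in the controls and 425, 269.8, 181 and 392 in Notch RNAi, with overlap. Prosbeta4 (0.57, SE 0.56) and Rpt4 (0.53, SE 0.66) came next. Rpt4 measured 184, 208 and 243 in the controls and 425, 280.4, 163 and 347 in Notch RNAi. None of these values was far from its SE.

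Notch+Shal RNAi against control also left the members near the control level on average, with a wide spread within the group. The median log2 fold change was -0.02 over the members and 0.11 over all genes, and 0 of 31 standard genes had an adjusted or unadjusted p under 0.05 (0.0% and 4.32% of all genes in edgeR). Base genes had a median of 0.36, lid genes -0.10 and core genes -0.11. The highest was Rpn1 (adjusted p = 1.000, log2 fold change 0.78, SE 0.75), which rested on the 492 normalised CPM of Notch+Shal RNAi 2. Rpn13 (0.68, SE 0.83) and Rpn2 (0.50, SE 0.66) followed. Rpn13 measured 35.7, 55.0 and 118 in the controls and 43.7, 251 and 36.0 in Notch+Shal RNAi, so that its replicate 2 alone was above all controls. Rpn2 measured 193, 100.2 and 141 and 93.1, 403 and 115.0, again with replicate 2 alone above. The lowest were Rpn12 (-0.40, SE 0.58), Rpn8 (-0.31, SE 0.64) and Prosbeta2 (-0.24, SE 0.57). Notch+Shal RNAi 2 was the highest of 13 libraries for 6 of 10 base genes (Rpn1, Rpn2, Rpn10, Rpn13, Rpt1, Rpt3), for Rpn6 in the lid and for 0 of 13 core genes, where it was highest for 13.9% of all genes. The 6 neuronal markers summed to 7404 CPM in that library, eve at 930.2 CPM among them, and the hemocyte markers summed to 1594 CPM in Notch+Shal RNAi 3. The part of these markers in the spread was not tested.

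Against the libraries labelled Shal RNAi, proteasome subunit RNA stood higher in Notch+Shal RNAi. The median log2 fold change was 0.95 over the members and 0.38 over all genes, 1.34 for the base, 1.15 for the lid and 0.77 for the core. Over other genes of 815 to 1215 bases it was 0.25, and over those above 1215 and up to 3412 bases 0.65. In edgeR and DESeq2, 0 members had an adjusted p under 0.05 (0.0% of all genes in edgeR). At an unadjusted p under 0.05, 6 of 31 standard genes were higher, where 5.59% of all genes were: the base genes Rpn1, Rpt1, Rpt2, Rpt5 and Rpt6 and the lid gene Rpn9. Rpn1 had the lowest p (adjusted p = 0.278, log2 fold change 2.45, SE 0.83), and its lowest Notch+Shal RNAi value, 58.8, was above the highest in the other group, 53.1. Rpt1 (adjusted p = 0.338, log2 fold change 1.74, SE 0.70) measured 63.5, 159 and 41.5 in the libraries labelled Shal RNAi and 249, 559 and 102 in Notch+Shal RNAi, and Shal RNAi 2 exceeded Notch+Shal RNAi 3. For Rpt6 the values were adjusted p = 0.341, log2 fold change 1.71, SE 0.69. The groups did not overlap for 6 of 31 standard genes, where 7.5% of all genes were so separated upwards. Prosbeta4 was the 1 member below 0, where 39.9% of all genes were (-0.21, SE 0.59). The count of 6 was 1 without Shal RNAi 1 or without Shal RNAi 3, 2 without Notch+Shal RNAi 1, 10 without Notch+Shal RNAi 3 and 18 without Shal RNAi 2, which moved the median to 1.66. The members tested were 35 without Notch+Shal RNAi 1 and 38 in the other fits named. The share of all genes at that threshold in these fits is not given here. Without Shal RNAi 1 and 3 together the median was 0.39.

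The interaction asks whether the effect of the Shal RNAi label differed with Notch RNAi present. Of the members 0 had an adjusted p under 0.05 in edgeR or DESeq2, and 3 had an unadjusted p under 0.05, all positive, where 0.0% and 4.39% of all genes did. These were Rpn1 (adjusted p = 0.535, log2 fold change 2.30, SE 1.07), Rpt1 (adjusted p = 0.537, log2 fold change 1.96, SE 0.92) and the testis-type Rpt3R, whose fit rests on groups without counts. The median was 0.74 over the members and 0.40 over all genes, and Prosbeta4 was lowest (-0.77, SE 0.81). Other genes of 815 to 1215 bases had a median of 0.42, and those above 1215 and up to 3412 bases 0.77. By class the median was 0.96 for the lid, 1.03 for the base and 0.68 for the core. The pooled median of the members lay just below that of the longer range. Lid and base lay above the longer range, and the core lay above the shorter range. These differences were not tested. The count of 3 was 0 without Shal RNAi 1, Shal RNAi 3, Notch RNAi 1, Notch RNAi 2 or Notch RNAi 3, 1 without Control 1 and 10 without Shal RNAi 2. The members tested were 34 in the main fit and 38 without Shal RNAi 2. The share of all genes at that threshold in the fits with a library left out is not given here. Against Notch RNAi, Notch+Shal RNAi had 0 of 31 standard genes at an adjusted or unadjusted p under 0.05 (0.0% and 4.87% of all genes), and a median of -0.20 over the members and 0.12 over all genes. Prosbeta4 (-0.68, SE 0.56) and Rpn1 (0.63, SE 0.69) marked its ends among the standard genes, and Prosbeta5 (-0.53, SE 0.57) and Rpn12 (-0.49, SE 0.55) came next to Prosbeta4.

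The balance of regulatory particle to core RNA varied more between libraries than between groups. It was taken as the mean log2(CPM + 2) of the 18 lid and base genes minus that of the 13 core genes with counts. The controls stood at -0.89, -0.69 and -0.70. The libraries labelled Shal RNAi stood at -1.30, -0.77 and -1.83, and their mean was 0.54 lower than that of the controls, against a pooled SD within groups of 0.59. Without Shal RNAi 3 the difference was -0.27, and for the lid alone it was -0.73, for the base alone -0.39. Notch RNAi stood at -0.82, -0.82, -1.17 and -0.37, and Notch+Shal RNAi at -0.76, 0.31 and -1.69. Their differences from control were -0.03 and 0.04. The second became -0.47 without Notch+Shal RNAi 2 and 0.53 without Notch+Shal RNAi 3.

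Regulatory particle transcripts are mostly longer than core transcripts, with 995 to 3412 bases of exon against 815 to 1215. The same contrast was therefore taken over other genes: the mean log2(CPM + 2) of 4265 genes longer than 1215 and up to 3412 bases minus that of 1135 genes of 815 to 1215 bases. It was -0.67, -0.33 and -0.24 in the controls, -0.76, -0.39 and -0.81 in the libraries labelled Shal RNAi, -0.68, -0.32, -0.66 and 0.08 in Notch RNAi and -0.39, 0.55 and -0.95 in Notch+Shal RNAi. The 3 lowest libraries (Notch+Shal RNAi 3, Shal RNAi 3, Shal RNAi 1) and the 2 highest (Notch+Shal RNAi 2, Notch RNAi 4) were the same in both contrasts, and the part of transcript length in the subunit balance was not tested. Rpn11 and Rpn12, which fall within the core range at 1208 and 995 bases, were 0.77 lower relative to the core in the libraries labelled Shal RNAi than in the controls, a measure added after the data were seen.

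**Figure D4:**
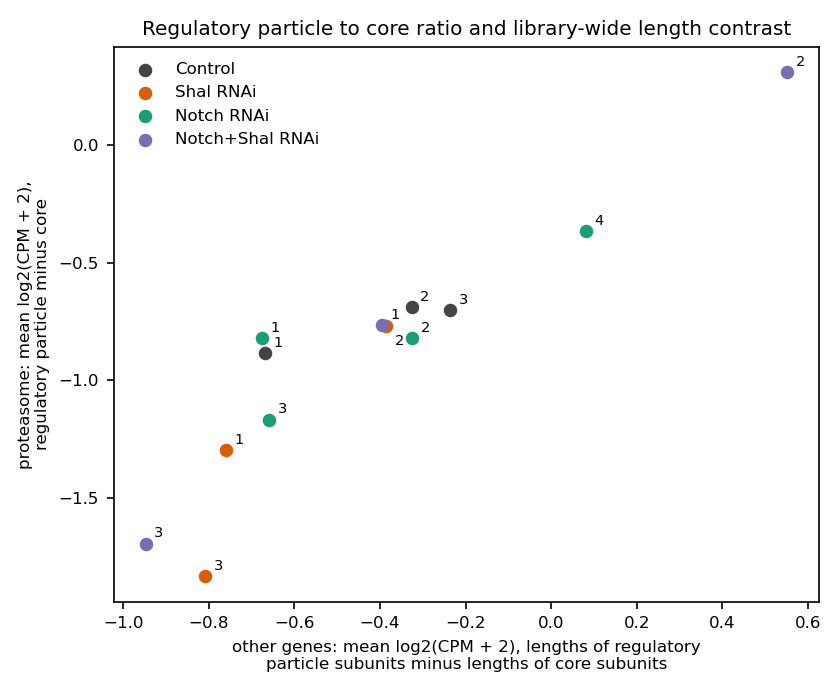
Regulatory particle minus core mean log2(CPM + 2) (vertical axis), 1 point per library with its replicate number, coloured by group. The horizontal axis gives other genes above 1215 and up to 3412 bases minus other genes of 815 to 1215 bases, in the same units. The libraries lie along a rising band from Notch+Shal RNAi 3 and Shal RNAi 3 (-1.69 and -1.83) to Notch+Shal RNAi 2 (0.31), and groups are mixed along it.

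Testis-type paralogues made a different pattern, with Rpt6R apart from the rest. Rpt6R, a paralogue of the ATPase Rpt6 on chromosome arm 3R (chr3R:30582198-30583697, minus strand; Rpt6 itself lies at chrX:21316052-21317663, plus strand), had counts in all 13 libraries. It measured 5.99, 63.7 and 63.9 normalised CPM in the controls, 4.88, 66.2 and 0.895 in the libraries labelled Shal RNAi, 163, 51.9, 7.34 and 29.9 in Notch RNAi and 137, 16.1 and 12.6 in Notch+Shal RNAi. Each group held both high and low libraries. Rpt6R took 1.46%, 20.2% and 11.6% of the counts of Rpt6R and Rpt6 together in the controls, 13.3%, 21.1% and 1.34% in the libraries labelled Shal RNAi, 25.2%, 12.6%, 2.35% and 9.72% in Notch RNAi and 18.5%, 3.90% and 6.65% in Notch+Shal RNAi. The groups overlapped fully, and against control the log2 fold changes were -0.65 (SE 1.12), 0.51 (SE 0.99) and 0.30 (SE 1.06) in the same order of groups.

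The other 15 testis-type genes had counts mainly in Control 1 and Notch+Shal RNAi 1. Summed over these genes there were 529 counts in Control 1 and 881 in Notch+Shal RNAi 1, and 1 to 70 in each other library. Rpt3R, a paralogue of the ATPase Rpt3, had 139 counts in Control 1, 110 in Notch+Shal RNAi 1, 58 in Notch RNAi 4, 39 in Notch+Shal RNAi 3, 23 in Control 3 and at most 1 elsewhere. Prosbeta4R2 had 53 and 206 counts in Control 1 and Notch+Shal RNAi 1, and Prosbeta5R1, a paralogue of the chymotrypsin-like subunit, had 124 and 41. Prosalpha6T had 77 and 70 there and 14 in Control 2. Rpt4R and Prosbeta4R1 had 202 and 183 counts in Notch+Shal RNAi 1 and at most 1 in any other library. Prosalpha4T2 had 59 counts in Notch+Shal RNAi 1 and 60 in Notch+Shal RNAi 2. Rpn13R had 50 in Control 1 and 63 in Notch RNAi 3, and Prosalpha3T and Rpn12R had 47 and 31 in Control 1. Prosbeta2R1 reached 9 counts in Notch+Shal RNAi 1 and Prosbeta2R2 6 in Control 1, while Prosalpha4T1 and Prosbeta5R2 never exceeded 1. Replicates of 1 group thus differed from almost no counts to many, and for none of these genes did all libraries of a group hold 3 or more counts.

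**Figure D5:**
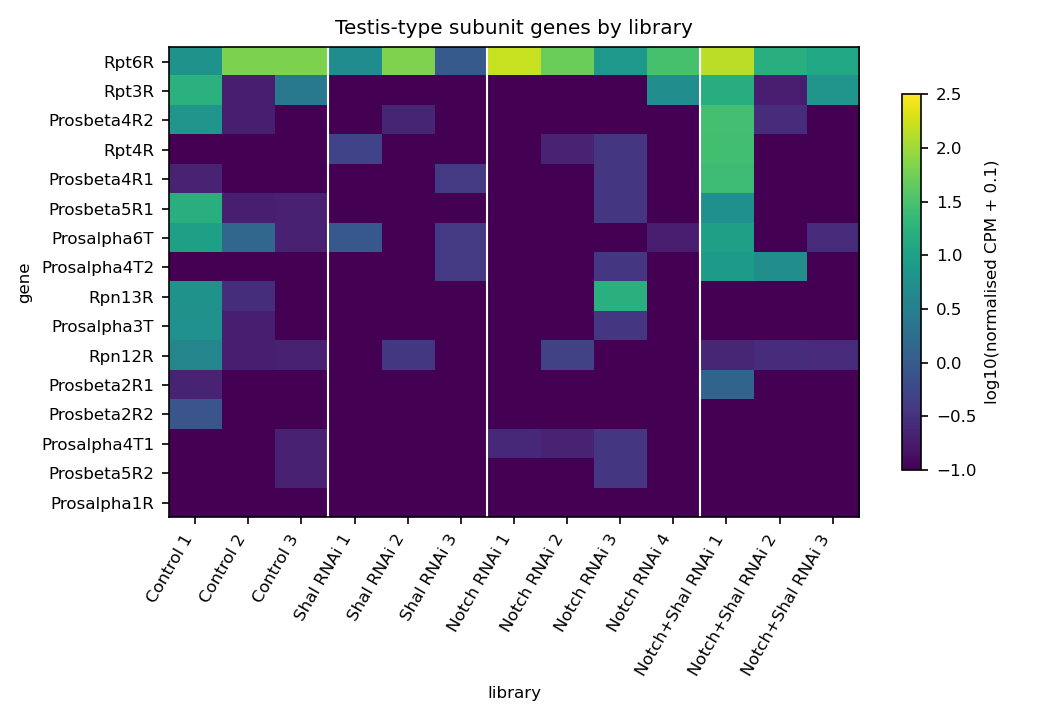
Log10(normalised CPM + 0.1) (colour) of the 16 testis-type genes (rows, by total count) in each library (columns). Rpt6R is the 1 gene with colour in all 13 libraries, and Control 1 and Notch+Shal RNAi 1, with 9 genes at 3 or more counts each, stand out from the rest.

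The same libraries led in the sum of 12 testis and male germline markers, at 102 CPM in Control 1, 208 in Notch+Shal RNAi 1 and 2.03 to 62.7 elsewhere. In these 2 libraries Mst87F stood at 38.4 and 68.4 CPM, dj at 16.8 and 59.7, betaTub85D at 15.03 and 56.7 and fzo at 20.3 and 12.2. But fzo also stood at 18.0 in Notch+Shal RNAi 2 and 16.7 in Notch RNAi 4. Other markers did not follow these 2 libraries. The mia gene stood at 3.49 and 1.19 in them, and at 28.0 in Notch RNAi 3, 23.6 in Notch RNAi 4 and 17.5 in Control 3. The bam gene was at 0 in both, and at 13.6 in Shal RNAi 2 and 9.93 in Notch+Shal RNAi 2. No library had topi counts, and aly and can had counts in 1 library each. Notch RNAi 1 had dj at 43.3 CPM but 1 count over the 15 testis-type genes. The dosage compensation RNA roX1 stood at 23.1 CPM in Control 1 and at 3823 in Notch+Shal RNAi 1. The part of testis RNA or of larval sex in the counts of the 15 testis-type genes was not tested. Of these genes Rpt3R and Prosalpha6T passed the filter while some groups were at or near 0, so their fitted fold changes, with SEs of 1.34 to 5.01, depend on the prior count and are not given as sizes.

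Genes around the proteasome gave values in both directions in the libraries labelled Shal RNAi against control. Of 11 assembly factors and regulators tested (of 13 listed), 0 had an adjusted p under 0.05 in any comparison, and in the libraries labelled Shal RNAi against control 1 had an unadjusted p under 0.05. That gene, Sem1, encodes a small lid subunit (Rpn15) whose symbol is outside the rule. It measured 597, 300.1 and 571 normalised CPM in the controls, 3641, 606 and 2096 in the libraries labelled Shal RNAi, 1607, 585, 844 and 305 in Notch RNAi and 630.0, 168 and 1331 in Notch+Shal RNAi. Values in Shal RNAi 1, 2 and 3 were all above the controls, as for 6.43% of all genes tested, with replicate 2 close to them (adjusted p = 0.266, log2 fold change 2.11, SE 0.75). At unadjusted p under 0.05, 8.03% of all genes were higher in them. The direction of Sem1 was opposite to the 8 other lid genes. Sem1 was lower in Notch+Shal RNAi than in the libraries labelled Shal RNAi (adjusted p = 0.394, log2 fold change -1.57, SE 0.73), and its interaction, negative at unadjusted p under 0.05 as for 4.77% of all genes, was -2.35 (SE 1.00, adjusted p = 0.497). The median log2 fold change of the 11 was -0.24 for the Shal RNAi label against control, close to -0.27 over all genes. PI31 and Pngl, 2 of the 11, lay below all controls without overlap, where 11.4% of all genes did: PI31, a proteasome-binding protein, measured 173, 143 and 109.8 in the controls and 25.6, 89.9 and 93.4 in the libraries labelled Shal RNAi, and Pngl, a peptide N-glycanase, measured 172, 92.0 and 116 in the controls and 16.3, 82.6 and 70.7 in the libraries labelled Shal RNAi.

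Against the libraries labelled Shal RNAi, Notch+Shal RNAi differed at unadjusted p under 0.05 in Usp14 (higher), maf-S and Sem1 (lower) of the 11, where 5.59% of all genes were higher and 6.7% lower. Usp14, the deubiquitinase that binds Rpn1, measured 249, 307 and 304 in the controls, 37.4, 303 and 45.3 in the libraries labelled Shal RNAi and 524, 356 and 202 in Notch+Shal RNAi, so that Shal RNAi 1 and 3 were low and Shal RNAi 2 was within the control range (adjusted p = 0.406, log2 fold change 1.43, SE 0.69). The small Maf partner of cnc, maf-S, was lower (adjusted p = 0.398, log2 fold change -1.39, SE 0.65). The transcription factor cnc, whose mammalian relative Nrf1 drives proteasome genes, measured 263, 65.6 and 71.9 in the controls and 142, 102 and 382 in the libraries labelled Shal RNAi (log2 fold change 0.64, SE 0.68). Pomp, the core assembly chaperone, measured 206, 276 and 265 in the controls and 190.5, 295 and 142 in the libraries labelled Shal RNAi (-0.24, SE 0.59). Of 10 ubiquitin and p97 cofactor genes tested, 0 reached p under 0.05 for the Shal RNAi label against control, and 2 did in Notch+Shal RNAi against it: the ubiquitin-binding autophagy receptor ref(2)P (adjusted p = 0.293, log2 fold change 2.57, SE 0.91) and the p97 cofactor Ufd1 (adjusted p = 0.399, log2 fold change 1.54, SE 0.73). The ref(2)P gene measured 71.5, 78.1 and 104 in the controls, 8.95, 59.5 and 1.49 in the libraries labelled Shal RNAi and 65.0, 366 and 51.5 in Notch+Shal RNAi, and Notch+Shal RNAi 2 again held the highest. Ufd1 measured 189, 138 and 179, then 13.8, 137 and 14.6, then 248, 122 and 158 in the same groups. Both lay below all controls in the libraries labelled Shal RNAi, with Shal RNAi 2 the highest of them. They were the 2 of 10 genes to do so, where 11.4% of all genes did. For Ufd1 the gap was narrow, with Shal RNAi 2 at 137 and Control 2 at 138. The interaction of ref(2)P was 2.68 (edgeR, adjusted p = 0.512), positive at unadjusted p under 0.05 as for 4.39% of all genes. The fusion genes RpL40 and RpS27A, which supply ubiquitin joined to ribosomal proteins, had log2 fold changes of 0.95 (SE 0.60) and 0.71 (SE 0.62) for the Shal RNAi label against control.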

How the data were processed

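RNA of 13 libraries was sequenced by the authors after template switching and PCR, as read pairs of 100 bases, per the labels' protocols. The deposited values are raw counts per gene. The submitters' processing notes list STAR 2.7.0e, R 3.6.1, limma 3.40.6 and edgeR 3.26.7 with BDGP6; no source used here gives their roles, the annotation release or the treatment of strand, duplicates and multiply matching reads. No molecular identifiers are described, so amplification may add to the spread.

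Symbols came from FlyBase IDs in the BDGP6.54 annotation, in which 17626 IDs were found. Counts were fitted for all 13 libraries together with edgeR 4.0.16 in R 4.3.3 (TMM factors, default low-count filter with minimum count 10 and minimum total 15, robust quasi-likelihood fit, group as the 1 term), in 6 comparisons, with 2-sided tests and Benjamini-Hochberg adjustment at 0.05 over 8908 genes. The fit was tested on simulated counts. Class medians and ratios are descriptions without a test. Alternatives were RLE and TMMwsp factors, no filter, mitochondrial genes left out, DESeq2 1.42.0, limma voom 3.58.1, a replicate block, each library left out, Shal RNAi 1 and 3 left out, and an older quasi-likelihood fit added later. The members, the companion lists and the markers were chosen with earlier results of these data known. Named genes were subunits with catalytic, ubiquitin-binding or scaffold roles, the 3 lowest p in each direction per comparison, testis-type genes with counts, and up to 3 companion genes per direction at p under 0.05; Rpn5, Rpn7, Rpn9, Rpt5, Prosbeta3 and other core or companion genes outside it were named after their values were seen. Of the listed companions, PA200, Ecm29 and TER94 had no match and were not analysed here.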

Additional observations from a re-analysis of the deposited data

Results flagged for a closer look

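Notch RNAi is the 1 group of 4 libraries, and 43 of the 48 members had values there that differed at all. For 12 of these 43, 1 library stood far from the other 3; chance flags about 1 in 20 groups, and a single count beside 3 zeros is always flagged. Rpn1 stood at 299.8 normalised CPM in Notch RNAi 4 and at 70.1 to 102 in the others. Rpn5 stood at 767.5 in Notch RNAi 1 and at 355 to 392 in the others. Rpt3 stood at 98.3 in Notch RNAi 3 and at 258 to 271 in the others. The other 9 were testis-type genes with counts in 1 of the 4 libraries. Rpn13R stood at 16.5 normalised CPM in Notch RNAi 3 (63 counts), Rpt3R at 5.03 in Notch RNAi 4 (58 counts) and Rpn12R at 0.375 in Notch RNAi 2 (3 counts). Prosalpha3T, Prosalpha4T2, Prosbeta4R1, Prosbeta5R1 and Prosbeta5R2 each stood at 0.262 in Notch RNAi 3 and Prosalpha6T at 0.0868 in Notch RNAi 4, which is 1 count each.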

How the results depend on the processing

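No member had an adjusted p under 0.05 in any of the 6 comparisons under any alternative, except Rpn7 in the libraries labelled Shal RNAi against control without Shal RNAi 2 (0 to 1 over the libraries left out). Of all genes, 0 to 146 were called in that comparison over the libraries left out. Leaving out 1 library at a time gave medians of -1.61 to -0.75 and 0 to 18 members at unadjusted p under 0.05 for that comparison (main count 8). The same ranges were 0.00064 to 0.26 and 0 to 1 for Notch RNAi against control, -0.19 to 0.12 and 0 to 1 for Notch+Shal RNAi against control, 0.75 to 1.66 and 1 to 18 for Notch+Shal RNAi against Shal RNAi, -0.35 to -0.0026 and 0 to 2 against Notch RNAi, and 0.50 to 1.21 and 0 to 10 for the interaction. The members tested in these fits ran from 34 to 38, and the share of all genes at that threshold is not given here. With TMMwsp factors the counts were 1 for the Shal RNAi label against control, 3 for Notch+Shal RNAi against it and 0 for the interaction. Without Shal RNAi 1 and 3 together these 3 counts were 0, 0 and 0, and the medians of the first 2 were -0.44 and 0.39. Without the filter the counts were 2 for Notch+Shal RNAi against control and 3 against Notch RNAi; with the older quasi-likelihood fit they were 1 for Notch RNAi against control and 1 for Notch+Shal RNAi against Notch RNAi; with limma voom the interaction count was 1. The cause was not tested. The difference from control in regulatory particle to core balance ran from -0.81 to -0.27 for the Shal RNAi label. It ran from -0.18 to 0.09 for Notch RNAi and from -0.47 to 0.53 for Notch+Shal RNAi. No alternative moved it by more than the pooled SD of 0.59 from its main value. That SD is larger than the main differences of -0.54, -0.03 and 0.04 in size, so this check cannot show that they were stable.

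Replicate numbers were not treated as pairs. Deviations of same-numbered libraries correlated at -0.176 to 0.239 over 18 pairs (median 0.072). Those of different-numbered libraries correlated at -0.294 to 0.350 over 45 pairs (median -0.004). Whether same-numbered libraries shared a batch was not tested. With the replicate block, unadjusted counts were 12, 0, 0, 7, 0 and 3 in the order of comparisons above, with medians of -1.07, 0.12, -0.09, 0.92, -0.28 and 0.80, and no adjusted call changed. The median biological coefficient of variation over all genes was 1.17, and 3 counts equalled 0.322 to 0.793 CPM per library, a limit that bears on the testis-type genes.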
